A study of Mus musculus with 12 samples.

Results

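Integrins are the receptors with which cells hold on to the extracellular matrix, and this account concerns the transcripts of 10 subunits that epithelial cells use: Itga2, Itga3, Itga5, Itga6, Itgav, Itgb1, Itgb4, Itgb5, Itgb6 and Itgb8. They were chosen by name, and every array probe annotated to one of them was taken. The platform annotation lists 23 probes for 9 of the 10 genes, out of 17711 genes with a probe of their own. It lists no probe under the symbol Itga2, so the collagen receptor chain alpha 2 was not measured here. The arrays were hybridised with RNA of 6 mouse cell lines derived from tumours. The 3 lines of one genotype carry constitutively active STAT3 and the 3 lines of the other carry wild-type STAT3. STAT3 carries signals of cytokine receptors to the nucleus, where it switches genes on. Each line was measured on 2 arrays, and all lines were grown in the same medium with foetal calf serum and no treatment. The labels name neither the tissue of the tumours, nor what transformed the cells, nor whether a line is 1 clone. Nothing in them states separate cultures behind the arrays of a line, and p-values that rest on those arrays therefore measure a spread that may be technical.

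Every integrin is a pair of 1 alpha and 1 beta subunit, and the pair decides which ligand is bound. In epithelia, alpha 6 pairs with beta 4 in hemidesmosomes, the anchors to the laminins of the basement membrane, and alpha 3 pairs with beta 1 as a further laminin receptor. Alpha 5 with beta 1 binds fibronectin, and alpha v pairs with beta 1, beta 5, beta 6 or beta 8. Pairs of alpha v bind ligands that carry an RGD motif such as fibronectin and vitronectin, and those with beta 6 or beta 8 also release active TGF-beta from its latent complex. Inside the cell the beta tails bind talin, kindlins and tensins.

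Signals are given on the log2 scale after background correction and quantile normalization, on which a probe at background reads about as low as the dimmest members below. A probe was called detected on an array at a detection p under 0.01. Of 46632 probes 11002 to 12798 were detected, depending on the array. Across the 7306 genes tested, paired arrays of 1 line had a correlation of 0.993 to 0.998. The raw signal of the brightest probe lay between 38552 and 44974 on constitutively active arrays and between 30306 and 34189 on wild-type arrays. The labels give no slide or scan batch, and any that ran along with genotype cannot be told apart from it. In bulk RNA, fewer cells of a type and less RNA per cell cannot be told apart either. The keratin genes Krt8 and Krt18 and the junction genes Cdh1, Cldn4 and Cldn7 were detected on all 12 arrays, whereas the sixth epithelial marker, Epcam, was detected on none. None of 6 leukocyte markers on the array was detected on any array.

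Of the 9 genes with a probe, 7 had a probe detected on all 12 arrays, namely Itga3, Itga6, Itgav, Itgb1, Itgb4, Itgb5 and Itgb6. Itga5, the alpha chain of the fibronectin receptor, has 1 probe, which was detected on no array and read between 4.72 and 4.92 as line means. Itgb8, a beta chain that pairs with alpha v alone, has 3 probes, all detected on no array, with line means between 4.68 and 5.24. For both genes no fold is given. Of the 23 probes 11 passed the filter on dim probes (detected on both arrays of at least 3 lines) and 9 were detected on no array. Signals of different probes cannot be set against each other, so the amounts of the subunits are not compared.

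Between genotypes no subunit passed the threshold. Of 7306 genes tested, 0% passed (limma, adjusted p under 0.05), while 5.61% had an unadjusted p under 0.05. None of the 7 subunits tested had line means that did not overlap between genotypes, against 12.4% of all genes. The log2 fold changes, constitutively active minus wild-type, were above 0 for 4 subunits and below 0 for 3. Their median was 0.036, beside 0.012 over all genes. With median scaling in place of quantile normalization Itgav and Itgb5 were above 0 too (0.051 and 0.035). Both lay below the median over all genes, which then stood at 0.21. The plot of genotype differences gives the 7 estimates with their intervals.

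**Figure D1:**
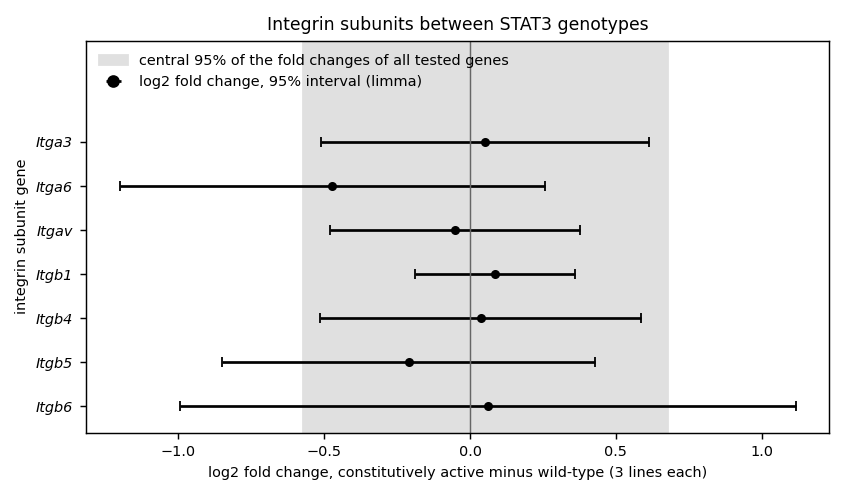
Log2 fold change between genotypes (horizontal axis, constitutively active minus wild-type) of the 7 tested integrin subunits. Points are estimates over 3 lines against 3, bars are 95% intervals from limma, and the grey band spans the central 95% of all 7306 genes. Every interval holds 0, and that of Itgb6 is the widest of the 7, from -0.99 to 1.12.

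Itga6, the alpha chain shared by the hemidesmosome integrin and a laminin receptor with beta 1, had the largest genotype difference of the 7. Its mean was 11.95 ± 0.59 over constitutively active lines, against 12.42 ± 0.13 over wild-type lines (SD over 3 lines of each genotype). The log2 fold change was -0.47, with a 95% interval from -1.20 to 0.26 (limma adjusted p = 0.898), and it was -0.15 without constitutively active line 3. Its hemidesmosome partner Itgb4 averaged 12.80 ± 0.30 over constitutively active lines, against 12.76 ± 0.32 over wild-type lines, and its interval ran from -0.51 to 0.58. Itgb1, the beta chain that pairs with most alpha chains, averaged 13.75 ± 0.08 over constitutively active lines, against 13.67 ± 0.11 over wild-type lines. Its interval was the narrowest, from -0.19 to 0.36. For Itga3 the interval ran from -0.51 to 0.61, for Itgav from -0.48 to 0.38 and for Itgb5 from -0.85 to 0.43. Differences inside these intervals could not be told from 0 with 3 lines a genotype.

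The subunits differed between single lines. A moderated F test with the arrays of a line as its residual called 6 of the 7 subunits among all 6 lines, where 77.6% of all genes were called. Among the constitutively active lines it called 4 of 7, where 60.9% of all genes were called, and among the wild-type lines 5 of 7, where 46.4% were called. With 7 subunits, these counts are not read as a difference from all genes. The share of all genes called in a contrast of 2 lines, the background for the contrasts below, was 28.3%, 46.7% and 50.3% for constitutively active lines 1 with 2, 1 with 3 and 2 with 3. It was 30.6%, 34.8% and 27.9% for constitutively active line 1 with wild-type lines 1, 2 and 3, 38%, 46.6% and 19.6% for line 2, and 46.5%, 42% and 48.5% for line 3. Among wild-type lines it was 33.8%, 22.4% and 37.3% for 1 with 2, 1 with 3 and 2 with 3. The range of the 6 line means was 0.73 log2 units at the median of the 7 subunits and 0.58 over all genes. It exceeded 1 log2 unit for 2 subunits, Itga6 and Itgb6, and for 20.4% of all genes. Which subunit was high or low in which line is described next and shown in the plot of signals by line.

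**Figure D2:**
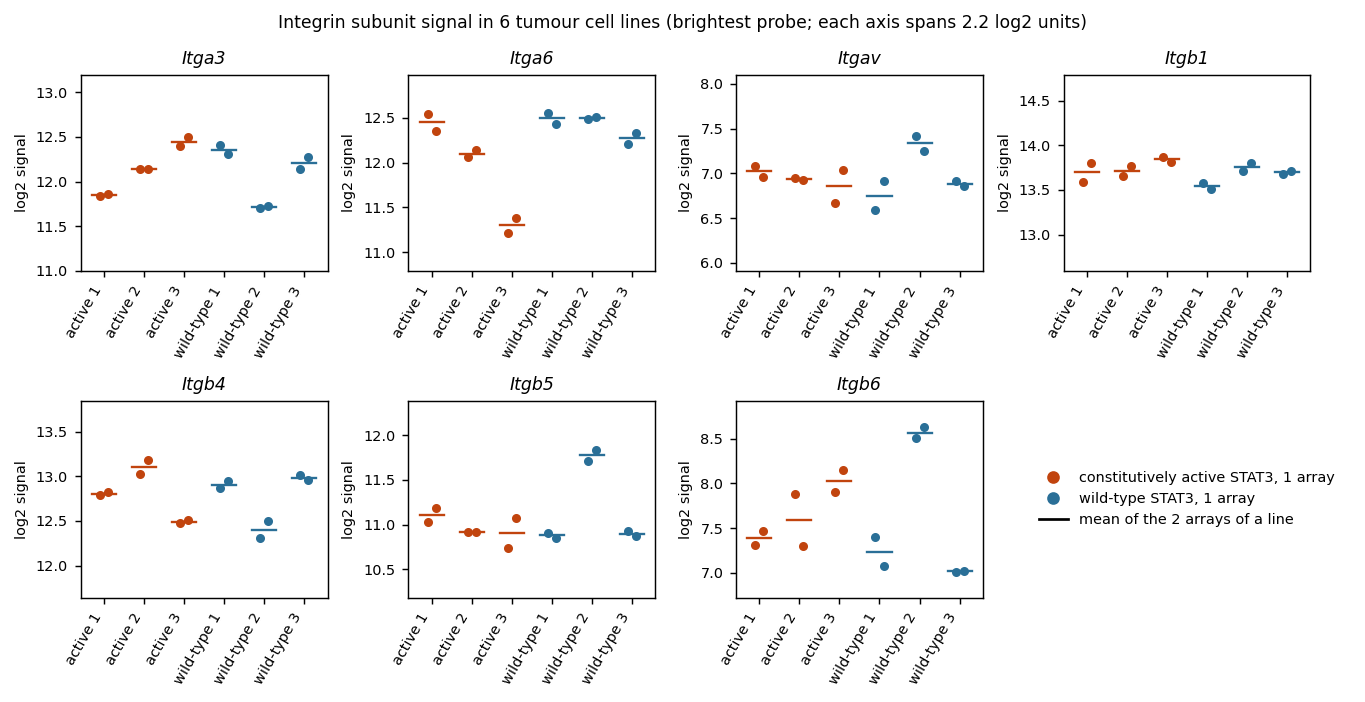
Log2 signal (vertical axes) of the brightest probe of 7 integrin subunits in 6 lines (horizontal axes), with constitutively active lines in orange and wild-type lines in blue. Points are single arrays and bars the mean of the 2 arrays of a line. Itga6 is lowest in constitutively active line 3, and Itgb5 and Itgb6 are highest in wild-type line 2.

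Among the laminin-binding chains, Itga6 was lowest in constitutively active line 3. Itga6 read 12.55 and 12.36 on the arrays of constitutively active line 1, 12.06 and 12.14 on those of line 2, and 11.21 and 11.38 on those of line 3. In wild-type lines it read 12.56 and 12.43, 12.49 and 12.51, and 12.21 and 12.33. Constitutively active line 3 thus lay below all other arrays, and the remaining lines of the genotypes overlapped. It was lower than each of the other 5 lines, by 1.75-fold against constitutively active line 2 to 2.30-fold against wild-type line 2 (limma adjusted p between 1.56e-06 and 5.34e-05 over the 5 contrasts, in which 42% to 50.3% of all genes were called). Constitutively active line 2 came next lowest and did not differ from wild-type line 3 beyond the spread of arrays (adjusted p = 0.257). Among the 3 wild-type lines alone Itga6 did not pass (adjusted p = 0.128).

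Itgb4, the long-tailed beta chain that links alpha 6 to the keratin skeleton, was low in that line and in 1 further line. It read 12.79 and 12.82, 13.02 and 13.18, and 12.47 and 12.51 in constitutively active lines 1, 2 and 3. In wild-type lines 1, 2 and 3 it read 12.86 and 12.95, 12.31 and 12.50, and 13.01 and 12.95. Constitutively active line 3 and wild-type line 2 were the low lines and did not differ from each other (adjusted p = 0.468), while both lay below constitutively active line 1 (adjusted p = 0.0166 and 0.00687). The partners Itga6 and Itgb4 were therefore both low in constitutively active line 3, whereas wild-type line 2 was low in Itgb4 and highest in Itga6. Their line means correlated at r = 0.27 over 6 lines, at -0.73 without constitutively active line 3 and at 0.70 without wild-type line 2. Such correlations are descriptions over 6 lines that share their normalization.

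Itga3, the laminin receptor chain that pairs with beta 1, read 11.84 and 11.86, 12.14 and 12.14, and 12.40 and 12.49 in constitutively active lines 1, 2 and 3. In wild-type lines it read 12.41 and 12.30, 11.70 and 11.73, and 12.14 and 12.27. It was highest in constitutively active line 3, where Itga6 was lowest, and lowest in wild-type line 2. The 4 upper lines formed a graded series in which no neighbours differed (adjusted p between 0.243 and 0.628), and below them constitutively active line 1 differed from line 2 (adjusted p = 0.0251) but not from wild-type line 2 (0.239). Constitutively active line 3 was 1.66-fold above wild-type line 2 (adjusted p = 3.74e-05).

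Itgb1 was the steadiest of the 7 by its brightest probe. Line means were 13.70, 13.71 and 13.84 in constitutively active lines and 13.54, 13.76 and 13.70 in wild-type lines, a range of 0.30 log2 units that lay at the 12.6th percentile of all genes. The F test among 6 lines did not pass (adjusted p = 0.148). Only 1 of the 15 contrasts between lines did, that of constitutively active line 3 with wild-type line 1 (adjusted p = 0.0220). Line means of this Itgb1 probe correlated at r = -0.70 with Itga6, -0.099 with Itga3 and 0.40 with Itgav over 6 lines.

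By their brightest probes Itgb5, Itgb6 and Itgav were highest in wild-type line 2. Itgb5, the beta chain of a vitronectin receptor, read 11.03 and 11.18, 10.92 and 10.92, and 10.73 and 11.08 in constitutively active lines 1, 2 and 3. In wild-type lines it read 10.91 and 10.86, 11.72 and 11.84, and 10.93 and 10.87. Both arrays of wild-type line 2 lay above all others, and its contrasts with the other 5 lines passed at 1.59-fold to 1.86-fold (adjusted p between 7.83e-05 and 0.00103, in which 33.8% to 46.6% of all genes were called). No other pair of lines differed (adjusted p of 0.158 or more in the 10 contrasts). The other kept probe of Itgb5 was likewise highest in wild-type line 2, at 8.998 against line means of 7.28 to 7.92 elsewhere.

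Itgb6, the epithelial beta chain that activates latent TGF-beta, had the widest range of the 7, 1.55 log2 units. It read 7.31 and 7.47, 7.88 and 7.30, and 7.91 and 8.14 in constitutively active lines 1, 2 and 3. In wild-type lines it read 7.40 and 7.07, 8.50 and 8.63, and 7.01 and 7.02. Wild-type line 2 was above each other line, from 1.46-fold against constitutively active line 3 (adjusted p = 0.0229) to 2.93-fold against wild-type line 3 (3.09e-05). Constitutively active line 3 came next and was above the remaining 4 lines (adjusted p between 0.000456 and 0.0492). The 2 further probes of Itgb6, which did not pass the filter, were detected on 5 arrays and 1 array. They also read highest in wild-type line 2, at 6.59 and 5.81, and next highest in constitutively active line 3, at 6.47 and 5.43. Their raw signals over all arrays lay only between 125 and 136 and between 82 and 104. Their order of lines therefore carries little weight.

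Itgav, the alpha chain common to both, read 7.08 and 6.96, 6.95 and 6.93, and 6.67 and 7.04 in constitutively active lines 1, 2 and 3. In wild-type lines it read 6.59 and 6.91, 7.42 and 7.25, and 6.92 and 6.85. Wild-type line 2 was highest on both arrays, and its contrasts passed against 4 of the 5 other lines (adjusted p between 0.00561 and 0.0296) but not against constitutively active line 1 (0.0910). By these brightest probes, line means of Itgav and Itgb5 correlated at r = 0.96 over 6 lines, and at 0.81 without wild-type line 2. Those of Itgav and Itgb6 correlated at 0.74, and at 0.075 without that line. Itgb5 with Itgb6, beta chains that do not pair, gave 0.77, and -0.026 without it. The second kept probe of Itgav lacked the high in wild-type line 2, reading 6.87 there and 7.26 in constitutively active line 1. The correlations of Itgav therefore hold for its brightest probe only.

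Wild-type line 2 was the highest or lowest line for 6 of the 7 subunits, where it was so for 34.5% of all genes. It was highest for Itga6, Itgav, Itgb5 and Itgb6 and lowest for Itga3 and Itgb4. For Itga6 this order rests on a tie, since wild-type line 2 did not differ from wild-type line 1 (adjusted p = 0.967) or constitutively active line 1 (0.748). Constitutively active line 3 was the highest or lowest line for 3 of the 7 subunits and for 49.2% of all genes. It was highest for 26.6% of all genes and lowest for 22.6%, more than any other line. Without wild-type line 2, 0 of the 7 subunits passed among the wild-type lines in place of 5. That left wild-type line 1 against line 3, in which 22.4% of all genes were called, in place of 46.4% among the 3 lines. The summed linear signal of 6 markers of basal epithelial cells was also highest in wild-type line 2, with constitutively active line 3 next, though single markers had other orders. It was 3138, 4704 and 12808 in constitutively active lines 1, 2 and 3, and 410, 23608 and 6326 in wild-type lines 1, 2 and 3. Of the 6 markers, 4 were detected on both arrays in each constitutively active line, and 1, 5 and 4 in wild-type lines 1, 2 and 3, with Krt5 undetected on all arrays. The line means of Acta2, the smooth muscle actin of such cells, were 8.65, 8.28 and 12.34 in constitutively active lines, against 6.03, 13.94 and 6.93 over wild-type lines. Those of Krt14 were 11.23, 11.49 and 12.69 in constitutively active lines, against 7.51, 12.25 and 12.42 over wild-type lines, so that it was highest in constitutively active line 3. Krt17 and Mylk were highest in wild-type line 2 (11.15 and 8.91), and next came constitutively active line 2 for Krt17 (10.28) and wild-type line 3 for Mylk (8.55). The summed signal of 7 fibroblast markers was 298 to 395 in constitutively active lines, and 305, 682 and 324 in wild-type lines 1, 2 and 3, with Col1a2, Col3a1, Dcn and Pdgfrb detected on no array. The part of these markers in the integrin differences was not tested.

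Probes of a gene did not always move alike, above all in constitutively active line 3. The dimmer of the 2 Itgb1 probes, detected on all 12 arrays, read 8.19, 8.57 and 7.29 in constitutively active lines 1, 2 and 3 and 8.22, 8.59 and 8.43 in wild-type lines. It was therefore lowest in the line where the brighter Itgb1 probe was highest, and with the mean of both probes the genotype log2 fold change of Itgb1 was -0.16 in place of 0.084. Fitted with every kept probe tested on its own, it passed among the constitutively active lines (adjusted p = 1.54e-05), and the brighter probe did not (0.351). The second kept probe of Itgav read 7.26, 6.90 and 6.28 in constitutively active lines and 7.22, 6.87 and 6.83 in wild-type lines, again lowest in constitutively active line 3 (adjusted p among constitutively active lines 0.000292), and not highest in wild-type line 2. The second kept probe of Itga6, detected on 7 arrays, was low in the same line, reading 7.01, 6.41 and 5.25 over constitutively active lines 1, 2 and 3 and 6.01 to 6.24 over wild-type lines. Of the 11 kept probes 7 passed among the constitutively active lines, where 59.6% of 9455 probes did, 6 among the wild-type lines, where 44.8% did, and 10 among all 6 lines, where 76.4% did. Of the probes that were not kept, 1 of Itga6, detected on 3 wild-type arrays, read 6.09, 5.67 and 4.90 in constitutively active lines 1, 2 and 3 and 6.82, 5.81 and 5.74 in wild-type lines, again lowest in constitutively active line 3. The last Itga6 probe (5.08 to 6.11), 3 of Itgav (4.64 to 6.07) and the other of Itgb4 (5.23 to 5.71) were detected on no array. The map of probe deviations shows these patterns side by side. The second kept probes of Itgav and Itga6 are annotated to cDNA clone records and both Itgb1 probes to the same RefSeq transcript. Which stretch of the transcript each probe reads was not examined here.

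**Figure D3:**
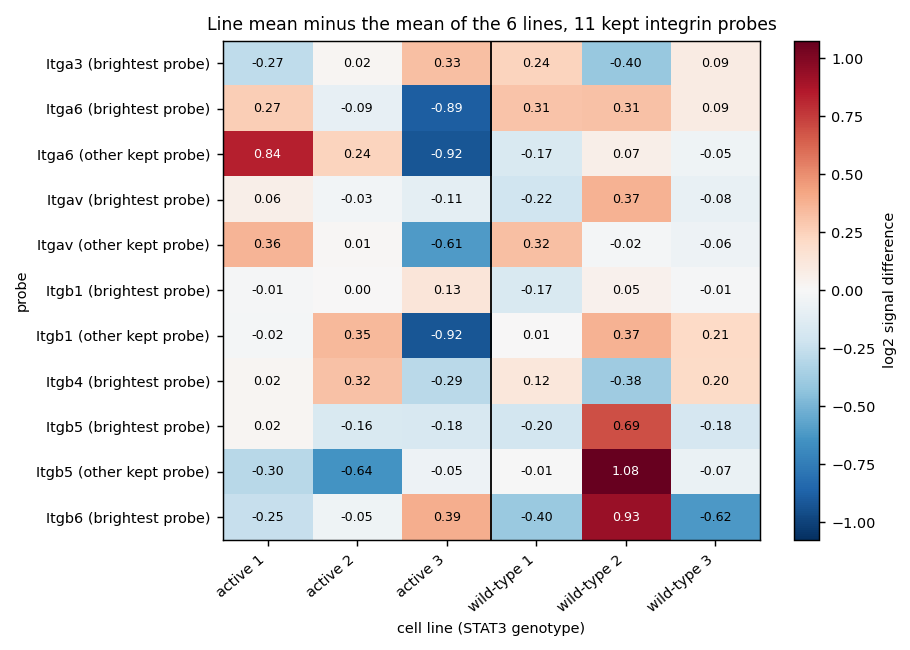
Line mean minus the mean of the 6 lines (colour and printed value, log2 units) for the 11 kept probes (rows) in 6 lines (columns, constitutively active lines left of the black rule). Wild-type line 2 is high in both Itgb5 probes and in Itgb6, and constitutively active line 3 is low in both Itga6 probes and in the other kept probes of Itgav and Itgb1.

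**Figure D4:**
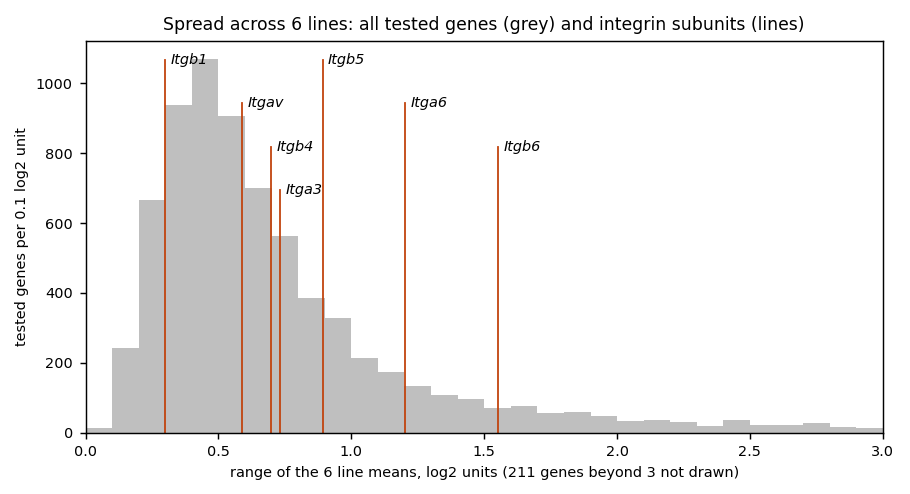
Range of the 6 line means (horizontal axis, log2 units) for all 7306 genes (grey bars, genes per bin on the vertical axis) and for the 7 subunits (orange lines, whose height has no meaning). The subunits spread from Itgb1 at 0.30 to Itgb6 at 1.55, on either side of the median gene at 0.58.

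Itgb5 and Itgb6 were the subunits most raised in wild-type line 2, and their promoters are printed to show how unlike they are in base composition. Below are the 250 bases before the annotated start of each gene from RefSeq on GRCm38.p6, 5′ to 3′ on the strand of the gene, with GGGCGG, or its complement CCGCCC, in capitals. Itgb5 lies on the plus strand at chr16:33829415-33829664 and Itgb6 on the minus strand at chr2:60722604-60722853.
Itgb5: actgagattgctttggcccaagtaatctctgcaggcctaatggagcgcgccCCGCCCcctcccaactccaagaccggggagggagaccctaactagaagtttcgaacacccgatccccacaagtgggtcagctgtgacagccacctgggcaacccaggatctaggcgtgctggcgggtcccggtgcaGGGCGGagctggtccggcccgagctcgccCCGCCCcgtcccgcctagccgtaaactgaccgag
Itgb6: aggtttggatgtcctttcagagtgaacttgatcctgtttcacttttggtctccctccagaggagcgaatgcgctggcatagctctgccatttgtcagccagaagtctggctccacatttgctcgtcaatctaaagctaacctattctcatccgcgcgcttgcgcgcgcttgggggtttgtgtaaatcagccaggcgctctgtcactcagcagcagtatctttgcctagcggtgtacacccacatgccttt
Windows of 300 bases, which add 50 bases after the start, were searched on both strands for 4 motifs. GGGCGG, the core of a GC box, was found 3 times in the printed Itgb5 stretch and in neither of the Itgb6 windows, of which the table holds 2. It was present in 7 of 10 windows of the 8 subunits in the table and in 35.7% of all 32841 windows. The Itgb5 window was 65.7% G and C with 20 CpG dinucleotides, and that of Itgb6 printed here 50.3% with 12, against medians of 52.7% and 7. The other Itgb6 window, not printed, was 38.3% G and C with 3. TTCNNNGAA, the palindrome that STAT factors bind, and its stricter form TTCCNGGAA, which overlaps it, were in none of the 10 windows, and in 8.3% and 1.15% of all windows. TGANTCA, a site of AP-1, was in 1 of 10 windows, a window of Itga3, and in 7.81% of all. GGGCGG and TGANTCA were added after the expression values were seen. Itga6 and Itgb4 have no entry in the table.

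The genes whose line means followed Itga6 or Itgb6 most closely were picked among 1491 genes with a range over 1 log2 unit. For Itga6 they were Hdlbp, a binding protein of RNA (r = 0.9995 over 6 lines), Egln3, an oxygen-dependent prolyl hydroxylase (0.995), and Pigt, a subunit of the enzyme that attaches GPI anchors (0.986). Pold1, a catalytic subunit of DNA polymerase delta, ran most opposite (-0.981). Egln3 was lowest in constitutively active line 3, where it read 5.09, beside 10.01 and 8.23 in lines 1 and 2 and 9.15 to 10.02 across wild-type lines. Its other kept probe read 6.59 to 7.32 in all lines without that low. For Itgb6 they were the serine protease gene Prss23 (r = 0.987), Dysf, a membrane repair protein (0.978), and Parm1 (0.971), while the protocadherin gene Pcdh12 ran most opposite (-0.959). The probes of Hdlbp, Egln3 and Pcdh12 used here were detected on 10 arrays each and that of Dysf on 8. Their lowest line means, 5.94, 5.09, 5.41 and 5.53, were dim. The coefficients rest on 6 lines that share their normalization and are given as a description only.

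**Figure D5:**
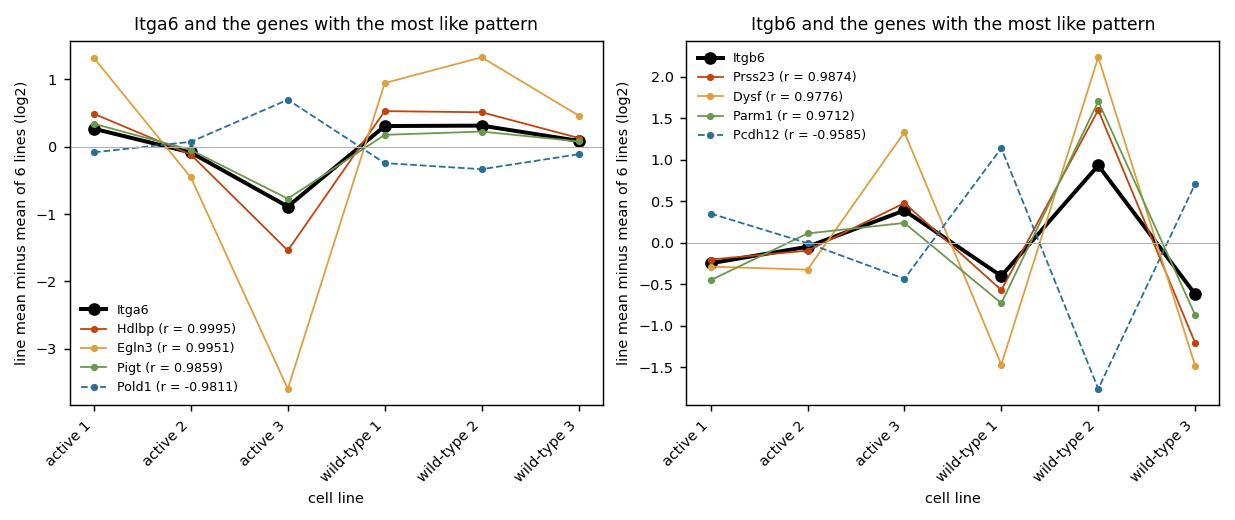
Line mean minus the mean of the 6 lines (vertical axes, log2 units) in 6 lines (horizontal axes) for Itga6 (left) and Itgb6 (right) in black, the 3 genes with the most like pattern in solid colour and the most opposite gene dashed. The Itga6 group is lowest in constitutively active line 3 and the Itgb6 group highest in wild-type line 2.

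Other integrin subunits were mostly undetected. Of 17 further subunit genes 16 are on the array, 13 of these were detected on no array, and the leukocyte chains Itgal, Itgam and Itgb2 were among them. Itga8, an alpha chain that pairs with beta 1, was the only one tested. It read 8.03, 8.05 and 6.91 in constitutively active lines and 8.36, 8.27 and 8.57 in wild-type lines, so that the genotypes did not overlap, yet the test was not passed (limma adjusted p = 0.854 at a log2 fold change of -0.73). Its other kept probe was also lowest in constitutively active line 3, at 5.08, but the genotypes overlapped there. Itgb3 and Itga11 are named because of their values. Itgb3, the beta chain that pairs with alpha v in osteoclasts and endothelium, was detected on no constitutively active array and on 2, 2 and 1 arrays of wild-type lines 1, 2 and 3. Its line means were 5.75, 5.62 and 5.50 in constitutively active lines, against 6.75, 6.14 and 5.94 over wild-type lines, and it was too seldom detected to be tested. Itga11, a collagen receptor chain of fibroblasts, was detected by 1 of its 2 probes on both arrays of wild-type line 2 alone, at 6.86. The other Itga11 probe was detected on no array and read 4.70 to 4.83 over the lines, with 4.745 in wild-type line 2.

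Since 0% of all 7306 genes passed between genotypes, 0 members of each list below passed in either direction. That count says nothing particular to genes around the integrins. Among 16 tested matrix ligand genes, constitutively active lines had 10 higher and 6 lower, with a median log2 fold change of 0.067, beside 52.5% of all genes higher. Of these 16, 10 passed among the constitutively active lines and 11 among the wild-type lines, where 60.9% and 46.4% of all genes did. Their widest ranges were those of Tnc, the matrix glycoprotein tenascin C, and Lamb3, a chain of the main epithelial laminin, the ligand of the alpha 6 and alpha 3 integrins. Lamb3 read 8.56, 9.49 and 11.12 in constitutively active lines, against 7.46, 9.53 and 8.996 over wild-type lines. It was thus highest in the line lowest for Itga6, as were 26.6% of all genes. Tnc read 10.24, 10.42 and 10.58 in constitutively active lines, against 6.66, 11.21 and 9.64 over wild-type lines. Of 8 tested genes of TGF-beta, its receptors and its latency proteins 3 were higher and 5 lower, with a median of -0.068, and 7 and 6 passed among constitutively active and wild-type lines. Ltbp2, a protein of elastic fibres related to latency proteins, was highest in wild-type line 2 as Itgb6 was, at 12.36, 11.88 and 12.62 in constitutively active lines, against 9.17, 14.17 and 11.97 over wild-type lines. Ltbp1, which anchors latent TGF-beta to the matrix, read 8.25, 6.81 and 7.57 in constitutively active lines, against 7.32, 9.07 and 7.53 over wild-type lines.

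Of 16 tested genes whose proteins bind integrin tails or their first adaptors 9 were higher and 7 lower, with a median of 0.093, beside 52.5% of all genes higher. Of these 16, 13 passed among constitutively active lines, where 60.9% of all genes did, and 14 among wild-type lines, where 46.4% did. Fermt1, the kindlin of epithelia, which activates integrins, read 11.59, 11.47 and 10.81 in constitutively active lines, against 6.88, 11.51 and 10.59 over wild-type lines, so that wild-type line 1 stood far below the rest. Tns4, a tensin that binds the beta 1 tail, read 6.75, 8.28 and 12.45 in constitutively active lines, against 4.86, 5.53 and 6.09 over wild-type lines, and no wild-type array detected it (limma adjusted p = 0.854). Tns4 passed the filter on dim probes through the constitutively active lines alone, so its place among the higher genes is not read as support for a genotype difference. It was highest in constitutively active line 3, the line lowest for Itga6 and the highest line for 26.6% of all genes. Of 16 focal adhesion signalling genes 7 were higher and 9 lower, with a median of -0.069, and 6 and 7 passed among constitutively active and wild-type lines. Elmo1, a guide of Rac activation, had its low in constitutively active line 3: it read 11.86, 12.10 and 10.56 over constitutively active lines and 11.54 to 11.80 over wild-type lines. Vcl, encoding vinculin, read 9.26, 9.79 and 10.06 in constitutively active lines, against 10.40, 9.96 and 10.12 over wild-type lines.

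Of 9 hemidesmosome and tetraspanin partners 5 were higher and 4 lower, with a median of 0.042, and 6 passed among the lines of each genotype, beside 60.9% of all genes among constitutively active lines and 46.4% among wild-type lines. Dst, whose epithelial isoform is the hemidesmosome plaque protein BP230, was low in constitutively active line 3 together with Itga6, at 8.03, 7.46 and 6.39 in constitutively active lines, against 8.24, 7.99 and 7.56 over wild-type lines. Its other kept probe was lowest in the same line, at 5.91, and that line was the lowest for 22.6% of all genes. Cd63, a tetraspanin of endosomes, read 13.65, 13.55 and 14.50 in constitutively active lines, against 12.53, 13.71 and 13.09 over wild-type lines. Of 11 genes of integrin traffic 2 were higher and 9 lower, with a median of -0.045, beside 52.5% of all genes higher. Of these 11, 4 passed among constitutively active lines and 3 among wild-type lines, beside the same 60.9% and 46.4%. Acap1 read 6.96, 7.70 and 6.83 in constitutively active lines, against 5.07, 6.14 and 7.87 over wild-type lines. Rab4a, a GTPase of fast recycling, was lowest in constitutively active line 3. It read 9.78, 9.69 and 8.87 over constitutively active lines and 9.56 to 9.91 over wild-type lines.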

How the data were processed

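RNA of 12 samples was read on Illumina bead arrays. The deposited raw table holds, per the file headers, a linear bead signal intensity and, as a fraction from 0 to 1, a detection value for 46632 probes, and 1 minus that fraction was used as the detection p. The deposited series matrix holds the authors' log2 values, with a normalization not given in the sources used here. BeadStudio 3.1.7 and lumi are named in the submitters' processing notes. Signals were processed with limma 3.58.1 in R 4.3.3 (neqc: normal-exponential background correction by detection p, offset 16, quantile normalization, log2). Kept probes had a detection p under 0.01 on both arrays of at least 3 lines, which left 11650, of which 9455 had exactly 1 symbol in the platform annotation. The brightest kept probe stood for a gene. No arrays held identical signals.

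Arrays were averaged within each line before 3 lines were compared with 3 (lmFit, eBayes, two-sided, Benjamini-Hochberg over 7306 genes, 0.05). An exact permutation over lines cannot go below p = 0.1. Differences between lines used 1 model of the 12 arrays. The number of arrays limits the precision, and the offset understates folds of dim probes. The procedure was tested on simulated data for the size of genotype fold changes and for the calls between lines. No minimum was set there for the share of simulated genotype differences that were called. The subunits and the gene lists were chosen with earlier results of these data known. All subunits are named and their probes described, as are the 2 widest genes of each list and any with no overlap and an absolute log2 fold change over 1, and for subunits ranging over 1 log2 unit the 3 most like genes and the most opposite one. Markers of epithelial, basal, leukocyte, endothelial, fibroblast and platelet cells were counted: 4 of 5 endothelial and 2 of 3 platelet markers were detected on no array. Protein sequences were not used here.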

Additional observations from a re-analysis of the deposited data

How the results depend on the processing

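The count of 0 genes past the threshold between genotypes held with median scaling, the deposited log2 values, no background correction, an offset of 50, no filter, probes detected on all 12 arrays, the mean of kept probes, every kept probe and the line as a random block. It became 156 with the 12 arrays taken as independent and ranged from 0 to 2 leaving out 1 line or 1 array number at a time, where the 2 genes called without wild-type line 2, Abhd16a and Wdr46, are no integrins. No subunit passed under any of these. With median scaling the median over all genes stood at 0.21 in place of 0.012. With it Itgav stood at 0.051 and Itgb5 at 0.035 in place of values below 0, and the mean of kept probes put Itgb1 at -0.16. Leaving out lines or array numbers in turn, fold changes ran from -0.14 to 0.20 for Itga3, -0.72 to -0.15 for Itga6, -0.17 to 0.12 for Itgav, 0.023 to 0.13 for Itgb1, -0.14 to 0.19 for Itgb4, -0.36 to 0.084 for Itgb5 and -0.23 to 0.54 for Itgb6. Itga6 alone kept its direction under all 19 alternatives, none of which took its other kept probe by itself. That probe, detected on 7 arrays, stood at 0.10, the opposite direction.

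The subunits called among the wild-type lines ranged from 0 to 5 when 1 line was left out. The 0 came without wild-type line 2, where 22.4% of all genes were called, beside 37.3% and 33.8% without wild-type lines 1 and 3. Subunits called among the constitutively active lines ranged from 3 to 4, where 28.3% to 50.3% of all genes were called. Those among all 6 lines ranged from 4 to 6. Under the other alternatives the counts among wild-type, constitutively active and all lines were 4 to 5, 3 to 6 and 5 to 7. In the main fit 46.4%, 60.9% and 77.6% of all genes were called. Shares under the alternatives are not given here, so these counts are not read as a difference from all genes. Itgb6 lost its call among constitutively active lines with median scaling, without the filter and without constitutively active line 3, and Itgav lost its call among wild-type lines with median scaling and with the mean of kept probes. By its brightest probe Itgb1 was called among the lines of neither genotype, whereas the mean of kept probes was called among both and its dimmer probe, tested on its own, among the constitutively active lines.

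Line and array numbers are shared between genotypes, and the labels do not say whether they pair the samples. Deviations of same-numbered lines correlated at -0.27 to 0.21 over 3 pairs, and those of same-numbered arrays at -0.26 to 0.31 over 15 pairs. With so few lines these correlations cannot settle whether samples were paired. With the line number as a replicate block 0 genes were called, as with the array number as a replicate block, which left 4, 5 and 6 subunits called among constitutively active, wild-type and all lines. These are the counts of the main fit, in which 60.9%, 46.4% and 77.6% of all genes were called.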
